A study of Mus musculus with 15 samples.

Results

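Levels of 10 genes that govern muscle size or encode factors secreted by muscle were followed in the gastrocnemius (calf) muscle, rich in fast fibres, of mice lacking Cpt1b in skeletal muscle. The 10 genes were taken by symbol from the deposited count table, and all 10 were among its 13602 gene symbols. They are the ligand gene Mstn, the receptor gene Acvr2b, the follistatin family genes Fst, Fstl3 and Fstl1, the insulin-like growth factor genes Igf1, Igf1r and Igfbp5, and the genes of 2 further secreted factors, Fndc5 and Metrnl. The 7 knockout mice carried the skeletal muscle knockout of Cpt1b, and the 8 control mice were wild type with the floxed gene. Every mouse was male and was fed chow for 12 to 14 weeks by the series text and the sample titles, whereas the diet field reads 45% HFD for all of them. The promoter that drove Cre and the age of the mice are not given in the sources used here. SAGE libraries count 1 short tag per transcript, cut close to its 3' end, so a level does not scale with transcript length. Levels below are CPM (tag counts scaled to a common library total, adjusted by TMM). Fold changes are log2 values of knockout over control from edgeR with their standard error (SE), and a gene is called where its p, adjusted by Benjamini-Hochberg over all genes tested, is under 0.05.

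Myostatin, the product of Mstn, is a muscle-made member of the TGF-beta family that restrains muscle growth. It binds activin type II receptors, of which Acvr2b encodes one, and signals through Smad2 and Smad3. Follistatin and follistatin-like 3 bind myostatin and activins outside the cell and block them. Insulin-like growth factor 1 acts in the opposite direction, through its receptor and the Akt and mTOR kinases, and its gene is a target of growth hormone acting through the transcription factor STAT5.

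None of the 10 genes was called. Of the 9 that passed the low-count filter, 3 were higher and 6 lower in knockout muscle, and edgeR called 0, against 2.17% of the 11062 genes tested (1.67% higher and 0.497% lower). An unadjusted p under 0.05 was found for 3 of the 9, Igf1, Fndc5 and Fstl1, against 13.6% of all genes tested; 1 was higher (7.65% of all genes) and 2 were lower (5.92%). DESeq2 called 1 of 10, Igf1, against 3.41% of genes, and limma-voom called 0 of 9, against 2.11%. The median log2 fold change of the 9 was -0.23, beside 0.0047 for all genes tested. Knockout and control libraries overlapped in each of the 10 genes, while they were apart in 1.19% of genes tested (0.967% higher and 0.226% lower in knockouts).

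**Figure D1:**
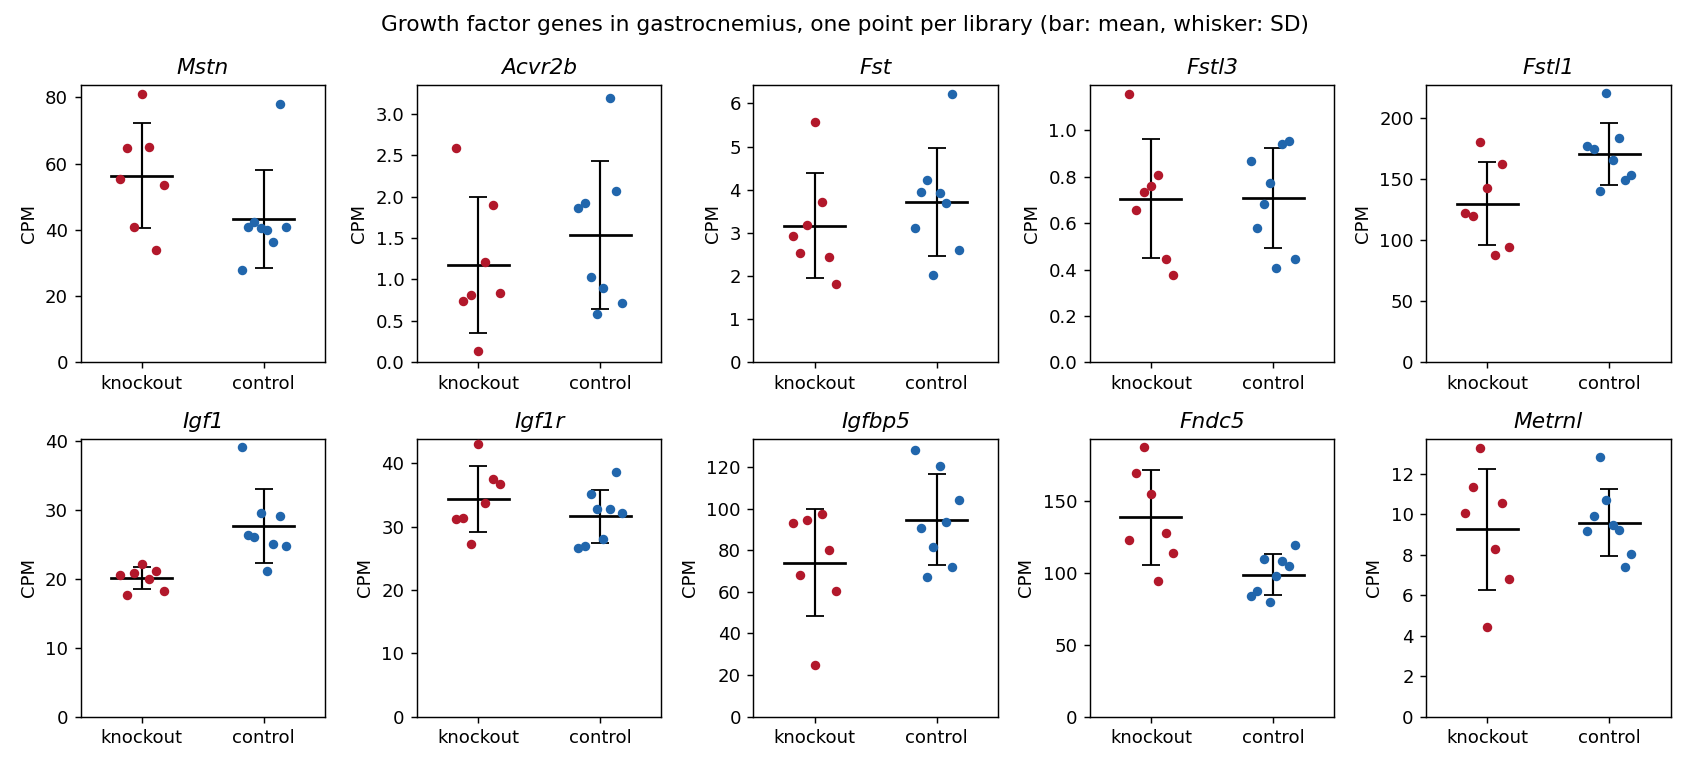
Levels of the 10 growth factor genes in CPM (linear axis from 0), one point per library, 7 knockout libraries left and 8 control libraries right, with a bar at the mean and whiskers of 1 SD. Igf1 shows a knockout group of 17.7 to 22.2 CPM, narrow for its mean (coefficient of variation 8.00%), with 5 of its 7 points under the lowest control, and Fndc5 has 5 of 7 knockouts above the highest control.

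The targeted gene itself was lower in the knockout libraries without being absent. Cpt1b, which encodes the muscle enzyme that makes acylcarnitines for mitochondrial import, ran from 1.10 to 6.46 CPM in knockouts (median 3.83) and from 4.44 to 13.1 CPM in controls (median 6.51). The groups overlapped, and the log2 fold change was -1.03 ± 0.31 (SE, edgeR adjusted p = 0.103, and 0.0309 with DESeq2; two-sided exact permutation p = 0.00389 over 6435 splits). The sources used here do not give the deleted part of the gene, so a 3' tag may lie outside it, and then it checks nothing.

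Depth overlapped between the groups. Total tags ran from 9390065 to 19397255 in knockouts and from 8334436 to 16238258 in controls (two-sided exact permutation p = 0.901). Markers of the tissue were present, and the 11 myofibre markers together took 62892 to 90097 CPM in knockouts and 73278 to 89736 CPM in controls. The median sum was 73281 CPM in knockouts and 82131 CPM in controls (two-sided exact permutation p = 0.0458, adjusted p = 0.229). Of the 11 genes edgeR called 1 lower and 0 higher, against 0.497% and 1.67% of all genes tested. Knockout replicate 4 and control replicate 7, the deepest libraries of their groups, scored highest on the leading principal component of all genes (76.2 and 51.2), which held 44.6% of the variance. The other libraries lay between -18.7 and 29.7 in knockouts and between -43.0 and 18.5 in controls. Values without these 2 libraries are given where they matter.

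Mstn had a higher mean in knockout muscle, 56.4 ± 15.8 CPM (SD, n = 7) against 43.3 ± 14.8 CPM in controls (SD, n = 8), a difference within the spread between mice. The gene lies on chromosome 1 from 53061640 to 53068079 (plus strand, GRCm38, protein-coding). Its level ran from 34.1 to 81.1 CPM in knockouts, with a median of 55.3, and from 27.8 to 78.1 CPM in controls, with a median of 40.7. Of the knockouts, 6 of 7 exceeded the control median, yet the groups overlapped. Control replicate 7 stood at 78.1 CPM while the next control had 42.2 CPM. Knockout replicates 3 (40.9 CPM) and 6 (34.1 CPM) lay below that next control, so the groups overlapped without control replicate 7 as well. The log2 fold change was 0.38 ± 0.20 (SE, edgeR adjusted p = 0.432), with a 95% interval from -0.05 to 0.81. Without control replicate 7 it was 0.56 (adjusted p = 0.0677), without both libraries that scored highest 0.44 (adjusted p = 0.120), and with the first surrogate variable of all genes as a covariate 0.17 (adjusted p = 0.552).

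The extremes of Mstn were also the extremes of the leading principal component. The knockout with the highest score, replicate 4, had the highest Mstn level, and the same held for control replicate 7. Control replicate 1, with the lowest score of all, had the lowest Mstn level at 27.8 CPM. Among 7909 other genes with a mean of at least 50 tags, the pattern most like that of Mstn over the 15 libraries, after the mean of each group was removed, belonged to Scp2, a sterol and lipid carrier gene (Pearson r = 0.94). It was followed by Rps18, a ribosomal protein gene (0.93), Zc3h15 (0.92), Mpdz (0.92) and the spliceosome gene Snrpe (0.92). The most opposite patterns were those of Ftsjd2 (-0.93), Cog4, a subunit of a Golgi tethering complex (-0.92), and Fam46b (-0.92). These genes were picked for their likeness, share the same libraries and get no test. Without the 2 libraries the coefficients of the 5 alike genes were 0.81 to 0.89.

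**Figure D2:**
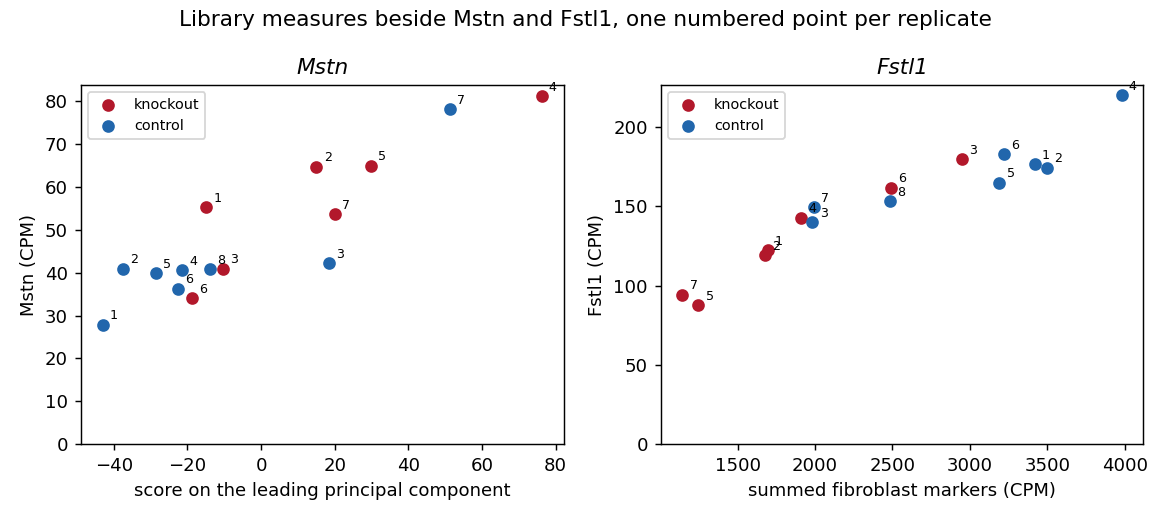
Left, the Mstn level in CPM against the score on the leading principal component of all genes; right, the Fstl1 level in CPM against the summed level of 9 fibroblast markers in CPM; one point per library, numbered by replicate, knockout red and control blue. Knockout replicate 4 (81.1 CPM) and control replicate 7 (78.1 CPM) lie at the upper right for Mstn, and the Fstl1 points of both groups lie along one rising band.

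Among the members, the receptor gene Acvr2b and the inhibitor genes Fst and Fstl3 were weakly expressed, and their tests were correspondingly imprecise. Acvr2a, another activin type II receptor gene named after its values were seen, had higher means than Acvr2b. These were 5.19 CPM in knockouts and 6.11 CPM in controls (log2 -0.24 ± 0.19, adjusted p = 0.589). Acvr2b, the activin type IIB receptor gene (chromosome 9, 119402118 to 119434995), had 0.143 to 2.58 CPM in knockouts (median 0.832) and 0.580 to 3.19 CPM in controls (median 1.44). These levels rest on a mean of 16.8 tags per library, and the log2 difference of -0.46 ± 0.46 (adjusted p = 0.664) had an interval from -1.41 to 0.50. Fst, the follistatin gene (chromosome 13, 114452290 to 114458951), had 1.82 to 5.57 CPM in knockouts (median 2.94) and 2.03 to 6.21 CPM in controls (median 3.81). Of the knockouts 6 of 7 lay within the control range, with a log2 difference of -0.23 ± 0.25 (adjusted p = 0.692). Its highest knockout and its highest control were the same replicate 4 and replicate 7 that led for Mstn. Fstl3, the gene of a related secreted inhibitor (chromosome 10, 79777272 to 79782630), had 0.378 to 1.16 CPM in knockouts (median 0.733) and 0.408 to 0.955 CPM in controls (median 0.728). With a mean of 9.13 tags it did not pass the low-count filter. By itself it gave a two-sided exact permutation p of 0.938, and a fit without the filter put its log2 difference at -0.0067 ± 0.287.

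Counted in the same libraries, Mstn tags outnumbered Fst tags by 12.9 to 29.5 times in knockouts (mean 18.95 ± 6.30, SD, n = 7) and by 8.96 to 20 times in controls (mean 12.2 ± 3.82, SD, n = 8). This ratio does not depend on the scaling of the library. The groups overlapped, and the ratio is given as a description with no test.

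Fstl1, a secreted glycoprotein gene with a follistatin-like domain that mesenchymal cells express strongly, had a lower mean in knockout muscle and was not called. It lies on chromosome 16 from 37776873 to 37836514. Its level ran from 87.7 to 180 CPM in knockouts (median 122) and from 140 to 220 CPM in controls (median 170). Below the lowest control were 4 of 7 knockouts, and the log2 difference was -0.39 ± 0.16 (adjusted p = 0.272), with an interval from -0.72 to -0.06. The summed level of 9 fibroblast and fibro-adipogenic markers, led by Col1a1, stood beside it at 1144 to 2950 CPM in knockouts and 1984 to 3980 CPM in controls. That sum differed by -0.70 on the log2 scale (exact permutation p = 0.0109, two-sided; 0.109 after adjustment over 10 marker lists), and none of its 9 genes was called. Col1a1 alone had a mean of 1271 CPM over all libraries, so the sum leans on 1 gene. In bulk muscle, such a sum cannot tell fewer fibroblasts from less RNA per fibroblast or a lower level of the marker genes alone.

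Fstl1 followed the fibroblast sum closely from library to library. On log2 scales over the 15 libraries, Pearson's r was 0.96 and Spearman's rho 0.95 (permutation p = 2e-05 for each, the smallest that the permutations can give, and 0.00018 adjusted over 9 relations). Within the 7 knockouts r was 0.98 (exact permutation p = 0.00119, adjusted p = 0.00357) and rho 0.96 (exact p = 0.00278, adjusted p = 0.00833). Within the 8 controls r was 0.90 (exact permutation p = 0.000893, adjusted p = 0.00357) and rho 0.90 (exact p = 0.00456, adjusted p = 0.0103). Without the 2 libraries farthest from the median sum, r over the rest was 0.94. The values over the 15 libraries also hold the difference between groups, which those within each group do not. These relations were chosen after the values were seen, and the part of the fibroblast markers in the Fstl1 difference was not tested.

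Igf1 came closest to a call among the 10 genes. It lies on chromosome 10 from 87858265 to 87937042 (plus strand). Its level ran from 17.7 to 22.2 CPM in knockouts, with a median of 20.6, and from 21.1 to 39.1 CPM in controls, with a median of 26.1. All 7 knockouts lay under the control median and 5 lay under the lowest control, and 7 of 8 controls lay above the highest knockout. The log2 fold change was -0.46 ± 0.13 (SE), a fold of 0.728 with a 95% interval from 0.606 to 0.876, and the edgeR adjusted p was 0.0749. DESeq2 placed the same difference past the threshold (log2 -0.47, adjusted p = 0.0136), and so did edgeR without control replicate 5 (-0.50, adjusted p = 0.0489) and edgeR with the surrogate variable (-0.45, adjusted p = 0.0325). Over all alternatives the adjusted p ran from 0.0136 to 0.249. Without control replicate 1, whose 39.1 CPM was the highest level, the log2 fold change was -0.37 (adjusted p = 0.127).

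The coefficient of variation of Igf1 was 8.00% in knockouts and 19.4% in controls. The control value includes control replicate 1, at 39.1 CPM with the nearest control at 29.5 CPM, and the difference in spread was not tested. The relation of Igf1 to the fibroblast sum was looser than that of Fstl1. Pearson's r was 0.62 (permutation p = 0.00944, adjusted p = 0.0212) and Spearman's rho 0.74 (permutation p = 0.00222, adjusted p = 0.00833) over the 15 libraries. Group means were not removed, and both Igf1 and the sum were lower on average in knockouts, so these values also hold the difference between groups. Within knockouts r was 0.57 (exact permutation p = 0.178, adjusted p = 0.229) and rho 0.75 (exact p = 0.0663, adjusted p = 0.119). Within controls r was 0.16 (exact permutation p = 0.760, adjusted p = 0.855) and rho 0.43 (exact p = 0.299, adjusted p = 0.385). Within knockouts the coefficients were about as large as over all libraries but missed the threshold at n = 7 by the exact permutation test, and within controls they were smaller. Without the 2 libraries farthest from the median sum, r over the rest was 0.51.

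Igf1r, the gene of the IGF1 receptor (chromosome 7, 67952827 to 68233668), had overlapping groups. It had 27.2 to 43.0 CPM in knockouts (median 33.7) and 26.7 to 38.6 CPM in controls (median 32.5), a log2 difference of 0.12 ± 0.12 (adjusted p = 0.673) with an interval from -0.14 to 0.38. Tags of Igf1 per tag of Igf1r came to 0.496 to 0.766 in knockouts (mean 0.594 ± 0.093, SD, n = 7) and 0.738 to 1.47 in controls (mean 0.889 ± 0.248, SD, n = 8). All knockouts but replicate 3 lay below every control on this ratio, which is independent of library scaling and was chosen after the values were seen.

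Igfbp5, the gene of a binding protein that holds IGFs in the matrix and is abundant in muscle (chromosome 1, 72857932 to 72874884, minus strand), overlapped between the groups. It had 24.9 to 97.3 CPM in knockouts (median 80.1) and 67.2 to 128 CPM in controls (median 92.0). The log2 difference was -0.36 ± 0.23 (adjusted p = 0.514), and much of it lay in knockout replicate 4, at 24.9 CPM, without which it was -0.20 (adjusted p = 0.705). No relation of Igfbp5 to the fibroblast sum passed. Over the 15 libraries r was 0.40 (permutation p = 0.161, adjusted p = 0.229) and rho 0.45 (permutation p = 0.0948, adjusted p = 0.142). In the knockouts alone r was 0.059 (exact permutation p = 0.924, adjusted p = 0.924), and in the controls alone 0.54 (exact permutation p = 0.163, adjusted p = 0.229). Without the 2 libraries farthest from each median sum, r was 0.51 over all libraries, -0.29 in knockouts and -0.37 in controls.

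Fndc5, which encodes the membrane precursor of irisin, a peptide released by exercised muscle, was the member with the largest positive difference. It lies on chromosome 4 from 129136999 to 129144593. Its level ran from 94.2 to 188 CPM in knockouts, with a median of 128, and from 79.9 to 119 CPM in controls, with a median of 102. Above the highest control were 5 of 7 knockouts, and only knockout replicate 5 lay under the control median. The log2 fold change was 0.49 ± 0.15 (SE), a fold of 1.40 with a 95% interval from 1.13 to 1.74, and it did not pass (edgeR adjusted p = 0.108; 0.0504 to 0.277 over the alternatives).

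Metrnl, which encodes meteorin-like, a circulating factor of muscle and fat, had overlapping groups. It lies on chromosome 11 from 121701544 to 121716306. It had 4.43 to 13.3 CPM in knockouts (median 10.1) and 7.43 to 12.8 CPM in controls (median 9.34). The log2 difference was -0.06 ± 0.20 (adjusted p = 0.901), and its interval of -0.47 to 0.35 spans folds of 0.722 to 1.28. Its sign turned in 5 of 24 alternatives.

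**Figure D3:**
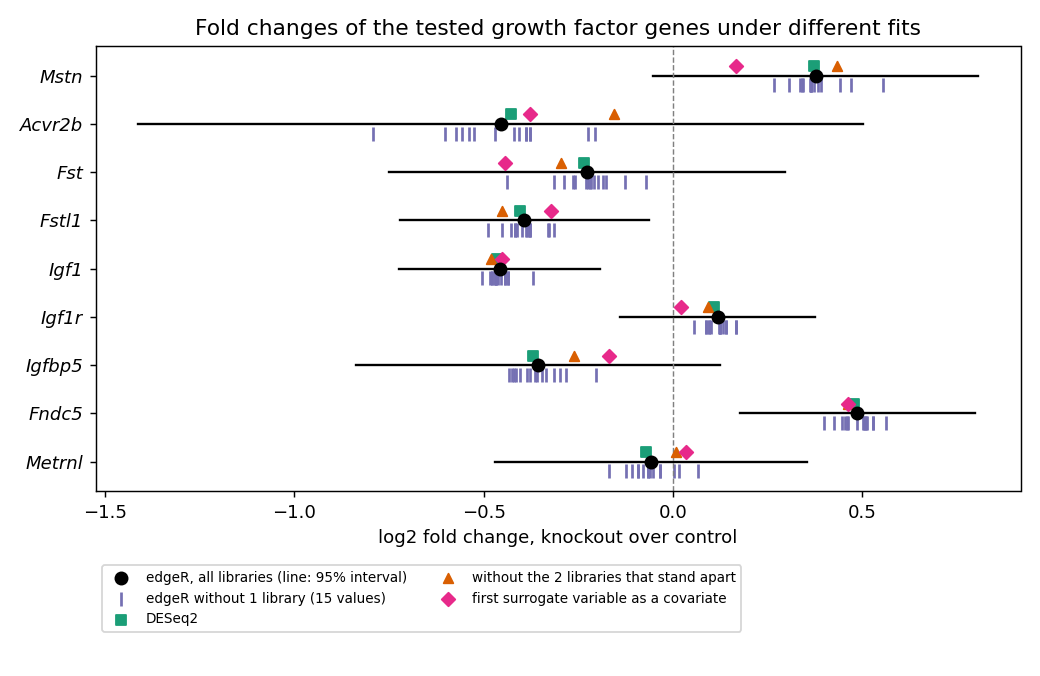
Log2 fold changes (knockout over control) of the 9 tested growth factor genes. Black points with lines are the edgeR values with 95% intervals; short vertical ticks leave out 1 of 15 libraries each; squares are DESeq2, triangles leave out knockout replicate 4 and control replicate 7, and diamonds use a surrogate variable. The lines of Igf1, Fstl1 and Fndc5 exclude 0 before adjustment, Igf1 values lie between -0.50 and -0.37, and Mstn values spread from 0.17 to 0.56.

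By mean tag level over all libraries, Fstl1 was the most abundant of the 10 (151 CPM), then Fndc5 (118), Igfbp5 (85.1), Mstn (49.4), Igf1r (32.9), Igf1 (24.1), Metrnl (9.44), Fst (3.46), Acvr2b (1.36) and Fstl3 (0.706). Neighbours in this order often overlapped. Fstl1 exceeded Fndc5 in 9 of 15 libraries and Fndc5 exceeded Igfbp5 in 10 of 15, so the order at the top is not firm, and the Fstl1 and Fndc5 ranges were apart in controls and overlapped in knockouts. Igf1 and Metrnl were apart in both groups, with Igf1 above in 15 of 15 libraries. A prediction of tags from the GENCODE transcripts of GRCm38, assuming an enzyme that cuts at CATG (the labels name none) and taking the site nearest the 3' end, gave 5 different tags for the coding transcripts of Igf1, 4 for Fst, 2 each for Acvr2b and Metrnl and 1 for each other member, none shared with another gene. The sources used here do not say how the authors combined tags of 1 gene, so levels between genes are approximate.

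Around the members, the growth hormone and IGF pathway showed 1 call. Of its 47 listed genes 43 were in the table and 41 were tested, of which 1 rose and 0 fell, with a median log2 fold change of 0.04 beside 0.0047 for all genes tested. The share called, 1 of 41, is close to the 2.17% of all genes tested. At an unadjusted p under 0.05 there were 9 of 41, against 13.6%. DESeq2 called 2 higher and 2 lower, and limma-voom 1 higher and 0 lower.

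The gene that rose was Mtor, which encodes the kinase at the centre of growth signalling (chromosome 4, 148448611 to 148557683). It had 3.76 to 9.08 CPM in knockouts (median 7.90) and 2.86 to 4.89 CPM in controls (median 3.59). Knockout replicate 4 was the lowest knockout and the only one within the control range. The log2 fold change was 0.98 ± 0.18 (SE, edgeR adjusted p = 0.00511), a fold of 1.97, and it stayed past the threshold in each of 24 alternatives. Akt1, a kinase upstream of mTOR named after its values were seen, had 47.3 to 125 CPM in knockouts (median 73.0) and 19.6 to 74.1 CPM in controls (median 47.3) without passing (log2 0.88 ± 0.25, adjusted p = 0.0871). It passed with DESeq2 (adjusted p = 0.0343) and without control replicate 3 (log2 1.01, adjusted p = 0.0422).

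Several genes of the growth hormone to STAT5 step had lower means beside Igf1, none of them called by edgeR; they were singled out after their values were seen. Stat5b, the transcription factor gene, had 31.9 to 57.3 CPM in knockouts (median 46.8) and 55.3 to 88.2 CPM in controls (median 63.9). Only knockout replicate 1 reached into the control range, and the log2 difference was -0.48 ± 0.13 (adjusted p = 0.0798). The adjusted p of Stat5b was 0.0195 with DESeq2, 0.0477 without control replicate 7 and 0.0428 with the surrogate variable. Socs2, a feedback inhibitor that STAT5 switches on, had 32.9 to 112 CPM in knockouts (median 51.6) and 77.6 to 370 CPM in controls (median 105). Its log2 difference of -1.07 ± 0.34 (adjusted p = 0.135; 0.0434 with DESeq2) was -0.69 without control replicate 1, the library at 370 CPM, which was also the highest for Igf1. Cish, a second STAT5 feedback gene, had 1.23 to 8.36 CPM in knockouts (median 3.48) and 2.12 to 34.9 CPM in controls (median 9.46), again with control replicate 1 highest (log2 -1.52 ± 0.53, adjusted p = 0.188). Ghr, the growth hormone receptor gene, overlapped between the groups, at 58.3 to 102 CPM in knockouts and 60.5 to 84.5 CPM in controls (log2 0.11 ± 0.12, adjusted p = 0.688). Stat5a went the other way, with a log2 difference of 0.53 ± 0.22 (adjusted p = 0.279).

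Promoters of Igf1 and Cish are shown because both genes are targets of STAT5, whose recognition motif is TTCNNNGAA, and only 1 of these windows holds it; the pair was chosen after the values were seen. Each runs from 250 bases before to 50 after an annotated start (RefSeq, GRCm38.p6), written 5′ to 3′ on the gene's plus strand. Igf1 is at chr10:87860861-87861160 and Cish at chr9:107296409-107296708, and capitals mark the motif, which reads the same way on both strands.
Igf1: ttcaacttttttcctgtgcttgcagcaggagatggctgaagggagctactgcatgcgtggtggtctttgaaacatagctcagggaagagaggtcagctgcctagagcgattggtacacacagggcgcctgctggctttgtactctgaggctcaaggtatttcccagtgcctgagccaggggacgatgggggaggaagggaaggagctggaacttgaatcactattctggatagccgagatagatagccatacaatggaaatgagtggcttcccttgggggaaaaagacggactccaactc
Cish: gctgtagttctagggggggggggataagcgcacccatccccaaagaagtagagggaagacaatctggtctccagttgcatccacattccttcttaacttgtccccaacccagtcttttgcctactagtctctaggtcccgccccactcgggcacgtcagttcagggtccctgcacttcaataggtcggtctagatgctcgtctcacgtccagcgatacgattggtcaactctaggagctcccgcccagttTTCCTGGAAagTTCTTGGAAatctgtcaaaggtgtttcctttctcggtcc
The Cish window held 2 copies, starting at base 1 and at base 12 counted from the annotated start, and the Igf1 window held none. Across the 32851 promoter windows of the same length, 8.3% held at least 1 copy and 0.457% at least 2. A window was at hand for 9 of the 10 members, and 0 of these 9 held the motif. A match is a description of letters and not a site of binding. Igf1 had 1 window, and its bases outside that window, other starts included, were not searched. The lack of a motif there says nothing of the rest of the gene.

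The myostatin, activin and BMP pathway gave no call. Of its 49 listed genes 45 were in the table and 36 were tested, and edgeR called 0 in either direction, as did DESeq2 and limma-voom. At an unadjusted p under 0.05 there were 10 of 36, against 13.6% of all genes tested. These 10 were 2 higher and 8 lower, beside 7.65% and 5.92% of all genes tested. The median log2 fold change was -0.22, beside 0.0047 for all genes tested. The smallest p belonged to Id1, a target gene of BMP signalling, at 14.1 to 19.6 CPM in knockouts (median 16.0) and 8.41 to 16.9 CPM in controls (median 11.2). Its log2 difference of 0.47 ± 0.14 (adjusted p = 0.110) passed only without control replicate 3 (0.55, adjusted p = 0.0357). Tgfb3, a TGF-beta ligand gene, followed at 54.8 to 74.2 CPM in knockouts (median 59.0) and 58.1 to 100.4 CPM in controls (median 79.0), with a log2 difference of -0.38 ± 0.13 (adjusted p = 0.167; 0.0429 without control replicate 7). Smad3, the transducer of myostatin and activin signals, and Wfikkn2, a secreted myostatin inhibitor, differed by -0.34 ± 0.12 (adjusted p = 0.169) and -0.77 ± 0.26 (adjusted p = 0.177), and both were named after their values were seen. Smad3 passed with the surrogate variable (adjusted p = 0.0407) and Wfikkn2 without knockout replicate 4 and control replicate 7 (adjusted p = 0.0434).

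**Figure D4:**
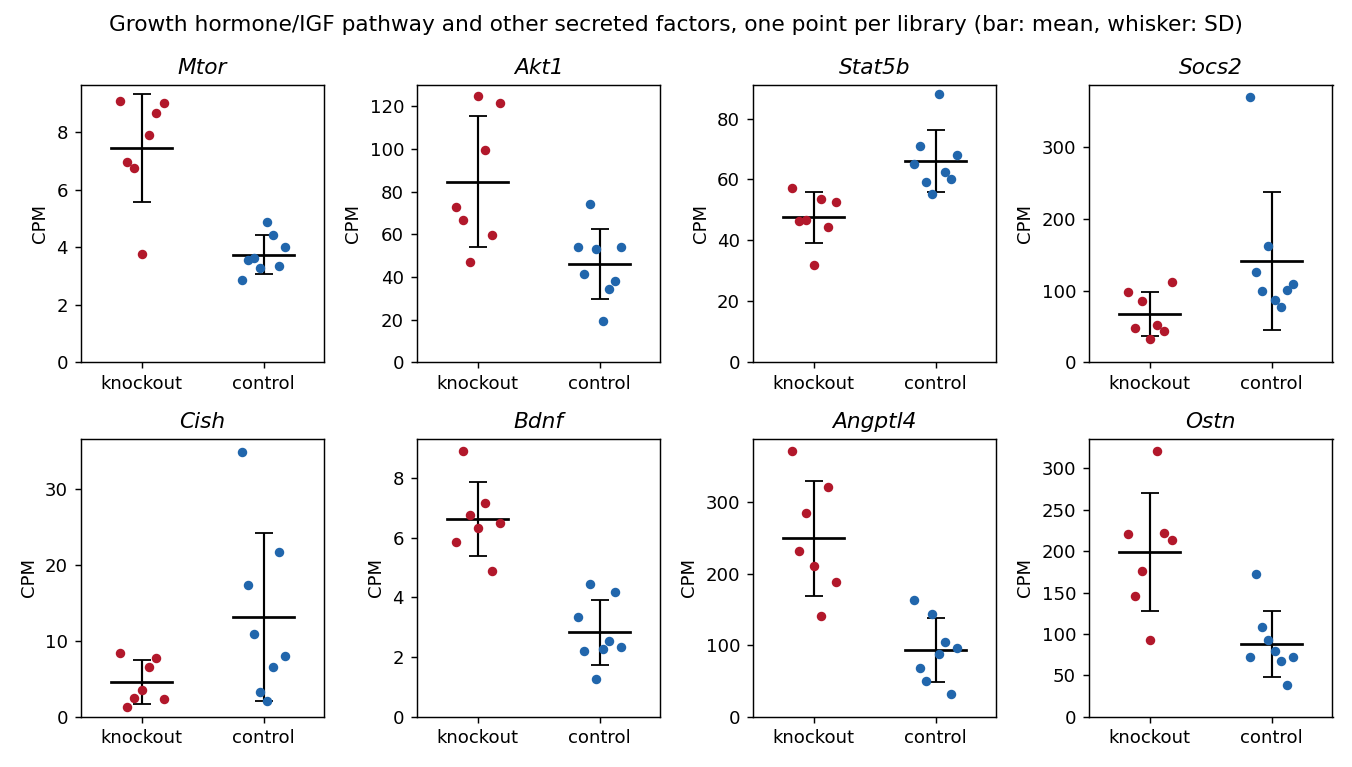
Levels in CPM (linear axis from 0) of 5 growth hormone and IGF pathway genes and 3 other secreted factors, one point per library, 7 knockouts left and 8 controls right, with a bar at the mean and whiskers of 1 SD. Bdnf groups do not overlap, 6 of 7 Mtor knockouts lie above every control, and control replicate 1 (370 CPM for Socs2) stands alone in Socs2.

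Other secreted muscle factors changed in both directions. Of 41 listed genes 29 were in the table and 25 were tested, of which 3 rose and 3 fell, against 1.67% and 0.497% of all genes tested; DESeq2 called 5 higher and 3 lower of 29, against 3.41% of genes in either direction, and limma-voom 3 and 3 of 25, against 2.11%. At an unadjusted p under 0.05 there were 12 of 25, against 13.6% of all genes tested, and the median log2 fold change was 0.02. Ppargc1a and Musk were on the list and are in these counts, although neither encodes a secreted factor. Ppargc1a was among the 12 and among the genes that DESeq2 called higher (adjusted p = 0.0362). The list was drawn up with earlier results of these data known, and the 3 that fell, Dkk3, Wisp1 and Lep, were put on it with their own result known, so neither count is independent evidence.

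Bdnf, the gene of a neurotrophin that contracting muscle also makes (chromosome 2, 109674700 to 109727007), rose. It had 4.90 to 8.92 CPM in knockouts (median 6.51) and 1.26 to 4.44 CPM in controls (median 2.43), and every knockout lay above every control. The log2 fold change was 1.22 ± 0.22 (SE, edgeR adjusted p = 0.00404). Angptl4, an inhibitor of lipoprotein lipase and a fatty acid response gene (chromosome 17, 33773750 to 33781830), rose too. In 6 of 7 knockouts it exceeded every control. It had 141 to 371 CPM in knockouts (median 232) and 31.4 to 163 CPM in controls (median 92.2), a log2 fold change of 1.42 ± 0.29 (adjusted p = 0.0110). Both calls held in each of 24 alternatives.

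Ostn, the gene of musclin, an activity-dependent peptide of muscle (chromosome 16, 27307489 to 27351212), rose as well and was named after its values were seen. It had 93.0 to 321 CPM in knockouts (median 213) and 38.3 to 172 CPM in controls (median 75.2), a log2 fold change of 1.18 ± 0.27 (adjusted p = 0.0256). The call was lost without knockout replicate 5 or 7 or without control replicate 1, 5, 6 or 8, with log2 values of 1.03 to 1.17 and adjusted p of 0.0542 to 0.0654. The Ostn call was also lost with the replicate block (adjusted p = 0.158). Dkk3, a secreted relative of the Wnt inhibitors, had 8.30 to 20.9 CPM in knockouts and 23.9 to 81.1 CPM in controls, with no overlap. It fell by 1.67 ± 0.27 on the log2 scale (adjusted p = 0.00109). Wisp1, a matricellular growth factor gene, had 1.23 to 2.56 CPM in knockouts and 1.86 to 6.09 CPM in controls. It fell by 1.04 ± 0.24 (adjusted p = 0.0239). The Wisp1 call was lost without knockout replicate 1, 2, 5 or 7 or control replicate 6, and with the replicate block (adjusted p of 0.0527 to 0.0660). Lep, the gene of the adipocyte hormone leptin, was named after its values were seen and had 0.378 to 3.12 CPM in knockouts and 1.43 to 10.1 CPM in controls. It fell by 1.83 ± 0.43 (adjusted p = 0.0295), and its call was lost in 9 of the 15 fits without 1 library (adjusted p up to 0.0702) and with the surrogate variable (log2 -1.56, adjusted p = 0.0607). The 7 adipocyte markers beside it summed to 912 to 1593 CPM in knockouts and 863 to 1157 CPM in controls, without a difference that passed (exact permutation p = 0.0807, adjusted p = 0.269); their part in the Lep change was not tested.

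Gdf15, a stress-induced member of the TGF-beta family, did not pass the low-count filter and was named after its values were seen. It had 3 to 22 tags per library in knockouts (0.244 to 1.13 CPM) and 0 to 5 tags in controls (0 to 0.342 CPM), and 6 of 7 knockouts lay above every control. Without the filter edgeR gave an adjusted p of 0.00731, and DESeq2 gave an adjusted p of 0.000227. Levels this low rest on few tags and give no firm fold.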

How the data were processed

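Gastrocnemius RNA of 15 mice was made into SOLiD SAGE libraries, per the labels' protocols. The authors deposited raw tag counts per gene symbol and a second table of normalized signal, which equals the counts divided by 1 DESeq2 size factor per library and served only to check the columns. Builds mm10 and GRCm38.p1 are named per the submitters' processing notes, and the aligner and counting rule are not given in the sources used here. Of 13602 symbols, 11062 passed filterByExpr (minimum count 10). They were fitted with edgeR 4.0.16 (R 4.3.3, TMM, robust quasi-likelihood, group only) and adjusted by Benjamini-Hochberg at 0.05. The procedure was tested on simulated counts that held no library-wide shifts such as the leading principal component. Alternatives were other scalings and filters, DESeq2 1.42.0, limma-voom (limma 3.58.1), a replicate block, leaving libraries out and, chosen after seeing the data, a surrogate variable (sva 3.50.0). Single values used exact permutation over 6435 splits, and correlations over 15 libraries 100000 permutations (scipy 1.17.1). By the labels 7 knockout and 8 control mice gave 1 library each, and no 2 libraries agreed within sampling noise. The 10 members and the lists were chosen with earlier results of these data known. Named were the members, Cpt1b, the called genes of each list by adjusted p, at most 4 (where none was called, the 2 of smallest p), and for Mstn the 5 most and 3 least correlated genes with a mean of at least 50 counts. Other genes are said to have been chosen after their values were seen. Positions are from GENCODE (GRCm38) and promoters from RefSeq (GRCm38.p6). At 8334436 to 19397255 tags per library, genes of few tags, such as Acvr2b and Fstl3, are imprecise. Marker lists for 10 cell types were summed per library; beside the fibroblast list, the satellite cell, endothelium, smooth muscle, macrophage, tendon, Schwann cell and erythroid sums gave adjusted exact permutation p of 0.460 to 0.740, and the myofibre sum 0.229.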

Additional observations from a re-analysis of the deposited data

Results flagged for a closer look

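Of 20 groups of libraries checked for 1 value far from the rest, 2 were picked out, and chance picks out about 1 in 20. Control replicate 7 had 78.1 CPM of Mstn, with the nearest control at 42.2 CPM, a gap of 0.714 of the range of the controls. Control replicate 1 had 39.1 CPM of Igf1, with the nearest control at 29.5 CPM, a gap of 0.535 of the range.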

How the results depend on the processing

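The 9 tested members kept the direction of their fold change in the alternatives run, except Metrnl, and no member was called higher in any; Acvr2b has no value with a mean of at least 20 counts. Metrnl turned to 0.0083 without knockout replicate 4 and control replicate 7, 0.035 with the surrogate variable, 0.068 when knockout replicate 4 was left out, 0.0047 for knockout replicate 7 and 0.016 for control replicate 3; its values without 1 library ran from -0.17 to 0.068. Members called lower numbered 1 (Igf1) with DESeq2 and with the surrogate variable, and 0 to 1 without 1 library. Over all genes, 185 were higher and 55 lower; these were 310 and 145 with DESeq2, 346 and 140 with the surrogate variable, 131 to 311 and 30 to 154 without 1 library, and 148 lower without the 2 libraries. Among the fits without 1 library, the largest counts came without control replicate 7 (311 and 154), and fewer were lower without knockout replicate 2 (30) or 7 (34) or control replicate 1 (35) or 6 (30). The myostatin list had 1 lower without the 2 libraries and 1 with the surrogate variable, and 0 to 1 in each direction without 1 library. The growth hormone list had 2 higher with DESeq2, without the 2 libraries and with the surrogate variable, and 1 to 2 without 1 library; it had 2 lower with DESeq2, 1 with the surrogate variable and 0 to 1 without 1 library. Beside Mtor, the second gene was Akt1 with DESeq2 and without control replicate 3, and Grb10, an adaptor that dampens insulin and IGF receptor signals and was named after its values were seen, without control replicate 7 (log2 1.07, adjusted p = 0.0121), without the 2 libraries (0.82, adjusted p = 0.0108) and with the surrogate variable (0.49, adjusted p = 0.0197), against 0.79 (adjusted p = 0.194) with all libraries. The other secreted factors had 5 higher with DESeq2, and 2 to 4 higher and 1 to 3 lower without 1 library. Ppargc1a, whose product is not a secreted factor, was called higher with DESeq2 and without control replicate 7. It was also called higher without the 2 libraries and with the surrogate variable. The cause of these shifts was not tested. Knockouts and controls share replicate numbers, but only 3 of 7 same-numbered pairs correlated above 0.1 (r from -0.45 to 0.31) and 1 matched its own number best. No clear pairing of the mice by number was seen, though such correlations cannot exclude one. With the replicate block 98 genes were higher and 19 lower, and Ostn (adjusted p = 0.158) and Wisp1 (adjusted p = 0.0604) were not called. Scaling by library total alone moved the median of all genes to 0.055.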
